A study of Gallus gallus with 4 samples.

Results

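Breast muscle of light and heavy Recessive White Rock hens of the same age was compared by RNA-seq, as 1 library of low weight birds (WRRl) against 1 library of high weight birds (WRRh). Recessive White Rock is a fast-growing meat breed. RNA was extracted from each of 3 hens per group, aged 7 weeks, and mixed into 1 pool before sequencing, and the hens came from the opposite tails of the weight range of their breed. The birds weighed 1064.0 ± 11.1 g on average in WRRh and 695.0 ± 24.4 g in WRRl, with an error whose kind the labels leave unstated. The labels name no treatment, and all birds were fed ad libitum. The same series holds a matching pair of the slow-growing Xinghua breed, with high weight birds at 305.8 ± 23.3 g (XHh) and low weight birds at 207.6 ± 11.1 g (XHl), which is used here only side by side. The compared items were genes, with values in FPKM, which counts sequenced fragments relative to transcript length and to the size of the library. A gene entered the comparison when both White Rock libraries listed it above 0 and their mean was at least 1 FPKM, which held for 10700 of 17934 gene IDs. A gene under 1 FPKM in 1 library passed only through the library where it was higher. Differences are given as log2 ratios, log2(WRRl + 1) minus log2(WRRh + 1), so that a positive value means a higher level in the light birds, and the added 1 FPKM shrinks the ratio of weakly expressed genes. A gene is called at least 2-fold apart when this ratio is 1 or more in size. With 1 pooled library per side there is no replicate error, no test was possible, and every statement describes these libraries alone.

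Chicken breast muscle is made almost wholly of fast glycolytic fibres, which lean on troponin, myosin and actin isoforms of the fast type and on glycolysis for their energy. Between the fibres lie macrophages, lymphocytes, fibroblasts, capillaries and small arteries. Macrophages clear debris with scavenger receptors, an NADPH oxidase and acid hydrolases of the lysosome, and a vacuolar proton pump keeps the lysosome acid. Fibre mass is set by the balance between protein synthesis, driven through insulin and IGF signalling, and breakdown by the proteasome and autophagy, where FOXO factors switch on genes of breakdown. In RNA of whole muscle, fewer cells of a type cannot be told apart from less RNA per cell.

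Most genes were close to equal in both libraries. Of the 10700 genes, 351 (3.28%) were at least 2-fold higher and 80 (0.748%) at least 2-fold lower in WRRl, together 431 (4.03%), and 10269 lay within 2-fold. Of the higher genes 160 have no symbol and 81 belong to a list described here, and of the lower genes 50 and 9. The median log2 ratio was 0.05, and the 5th, 25th, 75th and 95th percentiles were -0.48, -0.15, 0.28 and 0.86. Above 0 lay 56.6% of the genes, the share beside which counts of list members above 0 stand. The ratios leaned upwards among weakly expressed genes, with a median of 0.14 at 2 to 5 FPKM and of -0.08 at 50 to 200 FPKM. The share at least 2-fold higher was 4.85% of the 1960 genes at 2 to 5 FPKM, 2.14% of the 4154 genes at 10 to 50 FPKM and 3.75% of the 373 genes above 200 FPKM. Just inside the threshold lay ENSGALG00000016881, without a symbol, at 2.11 against 5.24 FPKM, and just outside it BLK, a kinase of B cells, at 3.30 against 7.59 FPKM, both at the threshold within rounding. On the lower side these were ENSGALG00000008018 at 4.82 against 1.90 FPKM and SEMA3F at 2.41 against 0.704 FPKM. No read counts were used, but in genes under 0.1 FPKM the values moved in steps of whole reads. In 64 of 155 such genes the ratio of WRRl to WRRh was within 2% of 1.18, so 1 read was worth more FPKM in WRRl and that library was the shallower. The depth behind a single gene was not recovered.

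The libraries carried the transcripts of fast muscle at nearly equal levels. Among the 10 breast muscle markers checked, 5 matched a gene ID, and all 5 were abundant in both libraries. TNNI2, fast skeletal troponin I, had 10221 FPKM in WRRh and 9572 FPKM in WRRl (log2 ratio -0.09), and TNNT3, fast skeletal troponin T, had 7921 FPKM in WRRh and 7595 FPKM in WRRl (log2 ratio -0.06). The sum of the 5 markers was 21660 FPKM in WRRh and 20614 FPKM in WRRl. Several genes of muscle, among them GAPDH, HK2, PFKM, TNNC2 and MEF2C, are listed at 0 in both libraries and were not compared. The genes named here lie on unplaced sequence of the genome and are listed at 0 in the Xinghua libraries too, so their 0 was not read as absence. Defining markers of the other cell types were summed too. The 4 of 6 macrophage markers that matched had 82.6 FPKM in WRRh and 182 FPKM in WRRl, all 4 being higher in WRRl. The 3 B and plasma cell markers had 692 and 2450.1 FPKM, and the 2 matched T cell markers 54.7 and 102 FPKM. The 2 matched of 4 fibroblast markers had 1318 and 1662 FPKM, the 2 matched of 3 adipocyte markers 84.8 and 71.6 FPKM, and the 1 matched of 2 smooth muscle markers 33.0 and 13.8 FPKM. The adipocyte sum leaves out FABP4, which matched no gene ID by symbol. ENSGALG00000015767, without a symbol, had 193 and 550 FPKM (log2 ratio 1.51). Between WRRl and XHl it has the fold change that the paper prints for FABP4, so the direction of the adipocyte markers is not settled by this sum. The 1 matched of 2 Schwann cell markers had 1.58 and 1.86 FPKM. No marker of endothelium or red cells matched, and of the cartilage markers COL2A1 and ACAN are listed at 0. The part of these cells in the gene differences was not tested.

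**Figure D1:**
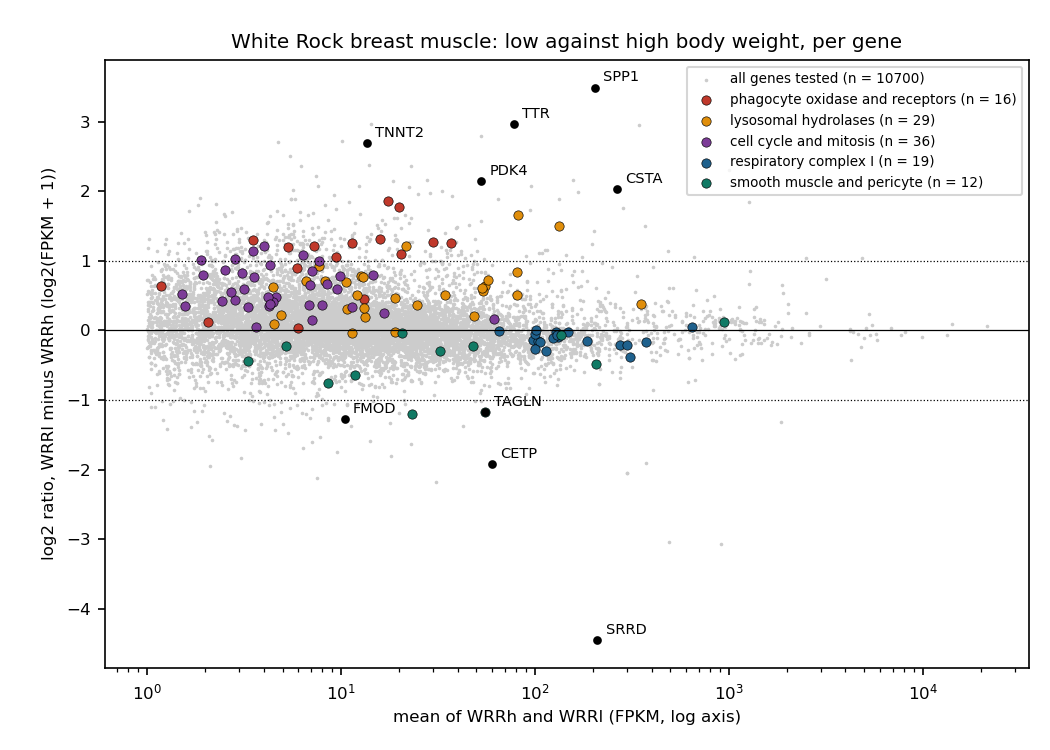
Each point is 1 gene, with the mean FPKM of the White Rock libraries on a log axis and the log2 ratio of WRRl to WRRh on the vertical axis, and dotted lines mark 2-fold. Phagocyte genes, lysosomal hydrolases and cell cycle genes lie mostly above 0, respiratory complex I and smooth muscle genes mostly below, and SPP1 (3.49) and SRRD (-4.45) mark the extremes among the labelled genes.

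Genes were grouped into 56 lists by function, cell type or pathway, of which 53 had at least 5 measured members. The lists with the highest medians were those of osteoclasts, phagocytes, minor sarcomere isoforms and macrophages, followed by lymphocyte, leukocyte signalling and antigen presentation lists and then by interferon, cell cycle and lysosomal hydrolases. The lowest medians were those of smooth muscle, chaperones, tendon, glycogen, endothelium, excitation-contraction coupling and respiratory complex I. In 23 of the 53 lists no member was at least 2-fold apart. Over all genes only 4.03% were, so a short list without such a member does not stand out. The same holds for each list described below as having none. Several lists share members, so they are not independent of each other. Members were chosen with earlier results of these data known, so counts and ranks of lists are description and no independent support. Counts of members at least 2-fold apart stand beside 3.28% higher and 0.748% lower over all genes.

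**Figure D2:**
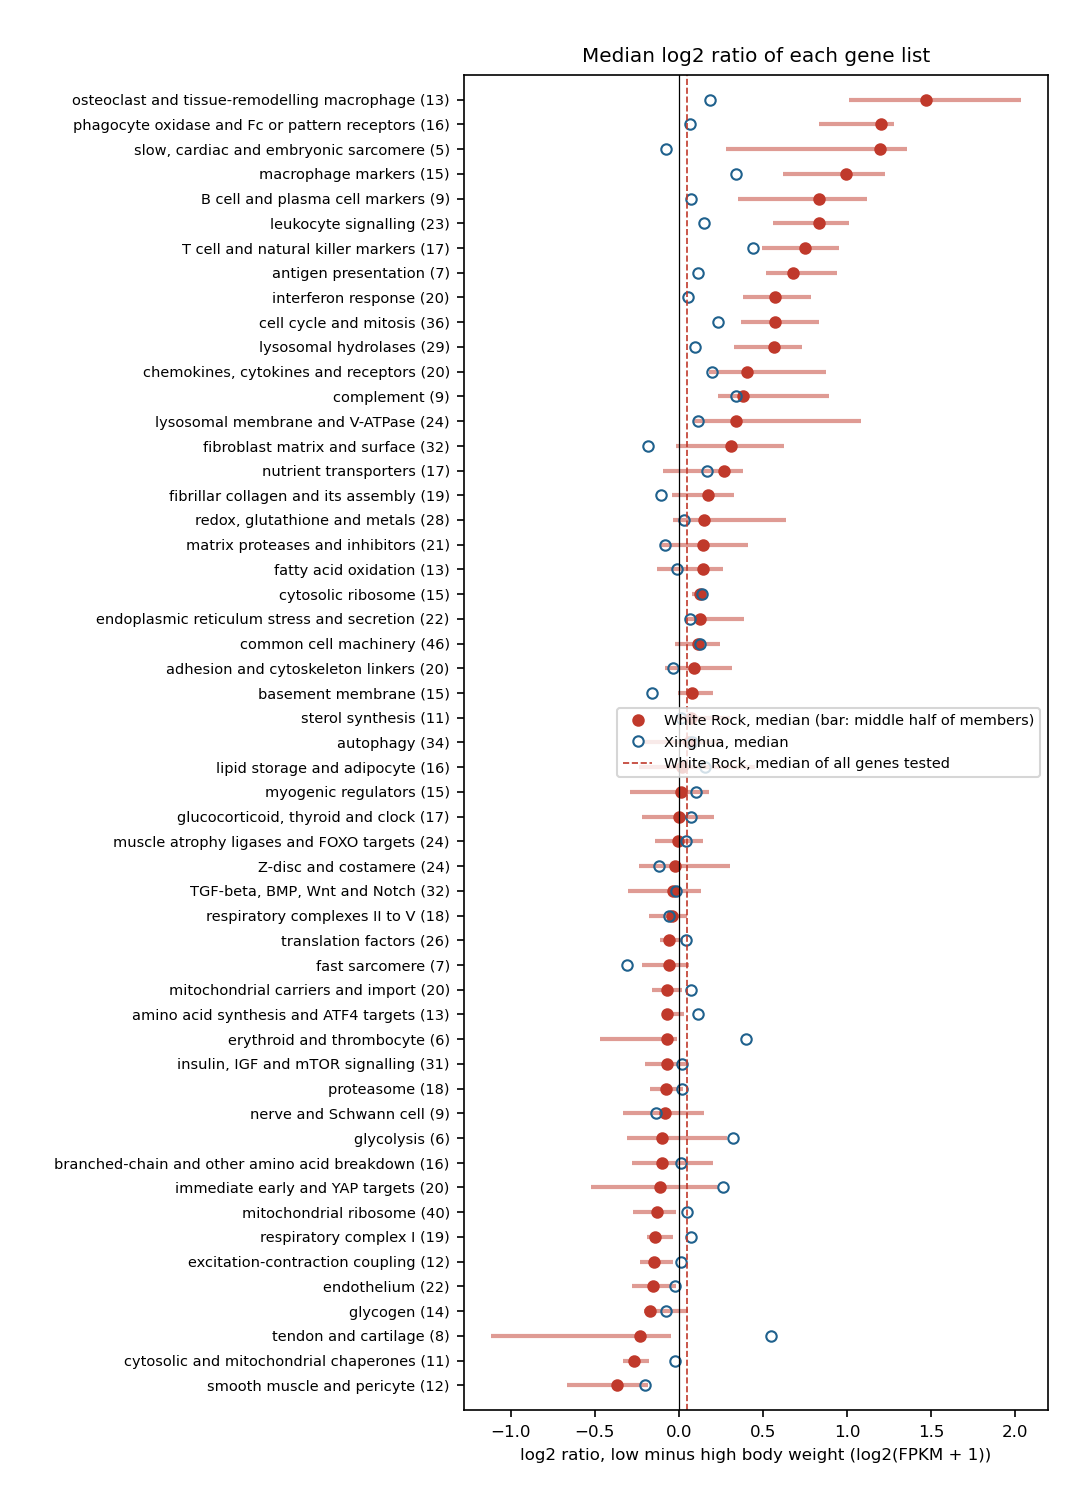
For every list with at least 5 measured members (number in parentheses), the filled point gives the median log2 ratio of the White Rock pair, the bar the interquartile range of its members, the open circle the median of the Xinghua pair, and the dashed line the White Rock median of all genes (0.05). The White Rock medians run from 1.47 for the osteoclast list to -0.37 for the smooth muscle list. Xinghua medians cover the members measured in that pair, which can be fewer.

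Genes of macrophages and of the phagocyte machinery were higher in the light birds. All 15 measured macrophage markers lay above 0, with a median log2 ratio of 0.99, and 7 of them were at least 2-fold higher against 3.28% of all genes. CYBB, the catalytic subunit of the phagocyte NADPH oxidase, had 6.98 FPKM in WRRh and 27.99 FPKM in WRRl (log2 ratio 1.86). MARCO, a scavenger receptor of macrophages that binds bacteria and particles, had 8.47 FPKM in WRRh and 31.4 FPKM in WRRl (log2 ratio 1.77). VSIG4, a complement receptor known from resident macrophages in mammals, stood at 7.33 against 20.04 FPKM (log2 ratio 1.34), WRRh being given first here and throughout. CTSS, a cathepsin that trims the invariant chain in antigen-presenting cells, was the most abundant of the markers at 69.7 against 198 FPKM (log2 ratio 1.50). LAPTM5, a lysosomal membrane protein of blood cells, followed at 66.5 against 145 FPKM (log2 ratio 1.11). These genes were all at least 2-fold higher, while STAB1, another scavenger receptor, had 14.6 against 19.02 FPKM (log2 ratio 0.36) and was the marker closest to equal. SPI1 (PU.1), the transcription factor that specifies myeloid cells, is no member as matched because only the study's tables name its gene ID, and it had 26.2 FPKM in WRRh and 79.6 FPKM in WRRl (log2 ratio 1.57).

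The list of phagocyte oxidase and pattern receptors had 11 of 16 members at least 2-fold higher, against 3.28% of all genes. None was lower, and the median was 1.20. Cytosolic subunits of the oxidase were higher too. NCF1 had 3.99 against 10.5 FPKM (log2 ratio 1.21) and NCF4 3.87 against 8.06 FPKM (log2 ratio 0.89). The gene model of NCF1 overlaps another, and its value is therefore uncertain. MYO1F, a myosin of immune cells, had 8.73 against 23.3 FPKM (log2 ratio 1.32). TLR15, a Toll-like receptor found in birds, had 1.62 against 5.46 FPKM (log2 ratio 1.30), at levels near the lower end of what was compared. PLEK, pleckstrin of platelets and leukocytes, and COLEC12, a scavenger collectin, were the more abundant members at 17.1 against 42.7 FPKM (log2 ratio 1.27) and 21.4 against 52.6 FPKM (log2 ratio 1.26). IRAK4, a kinase downstream of Toll-like receptors, was near equal at 5.95 against 6.14 FPKM (log2 ratio 0.04), and so was the flagellin receptor TLR5 at 1.93 against 2.20 FPKM (log2 ratio 0.13). The adaptor MYD88 stood at 10.96 against 15.3 FPKM (log2 ratio 0.45).

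The steepest list was that of osteoclasts and tissue-remodelling macrophages, with a median of 1.47. In it 10 of 13 measured members were at least 2-fold higher, against 3.28% of all genes. Members were chosen with earlier results of these data known, and SPP1, CSTA, ATP6V0D2 and ATP6V1C2 are among the genes the study names for this contrast. The count and the rank of the list can partly reflect that choice. Many genes of the list are named for bone, where osteoclasts use them to resorb mineral, and macrophages that process lipid or debris use several as well. SPP1, osteopontin, had 32.6 FPKM in WRRh and 377 FPKM in WRRl (log2 ratio 3.49), the largest ratio upwards among genes with a symbol. ATP6V0D2, a subunit of the vacuolar proton pump enriched in osteoclasts, had 6.20 FPKM in WRRh and 30.9 FPKM in WRRl (log2 ratio 2.15). ATP6V1C2, another pump subunit whose gene model overlaps a neighbour, had 4.16 FPKM in WRRh and 20.7 FPKM in WRRl (log2 ratio 2.07). CSTA, cystatin A, an inhibitor of cysteine cathepsins, was abundant at 103 against 426 FPKM (log2 ratio 2.03). TCIRG1, the pump subunit of the osteoclast ruffled border, had 7.79 against 23.4 FPKM (log2 ratio 1.48), and DCSTAMP, which drives fusion of osteoclast precursors, had 1.16 against 4.97 FPKM (log2 ratio 1.47). MMP9, gelatinase B, stood at 2.48 against 7.86 FPKM (log2 ratio 1.35). NFATC1, the transcription factor that leads osteoclast formation, did not share the pattern, at 34.2 against 32.2 FPKM (log2 ratio -0.08), and neither did TNFRSF11A, the receptor RANK, at 3.54 against 4.65 FPKM (log2 ratio 0.32).

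**Figure D3:**
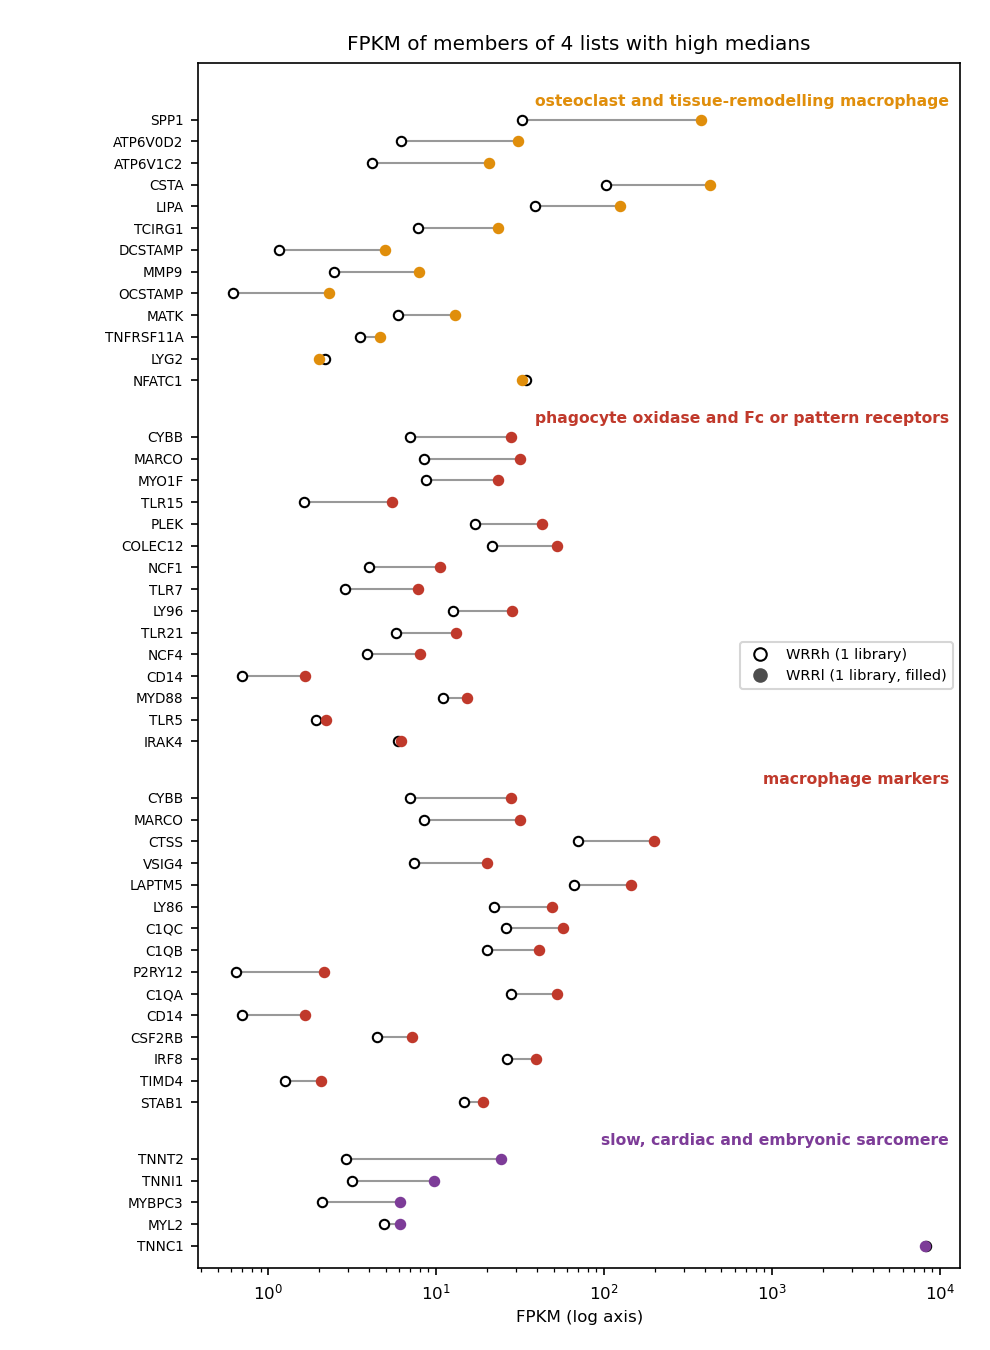
Open circles give WRRh and filled circles WRRl on a log axis of FPKM for measured members of 4 lists with high medians, 1 library each, with 1 phagocyte member not drawn. In the macrophage and phagocyte lists every filled circle drawn lies to the right of its open circle, and SPP1 spans 32.6 to 377 FPKM.

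Acid hydrolases of the lysosome were higher in the light birds as a group, and most by less than 2-fold. Of 29 measured hydrolases 27 lay above 0, and the median was 0.56. Against 3.28% of all genes, 3 hydrolases were at least 2-fold higher. These were LIPA, the acid lipase that frees cholesterol from its esters, at 38.8 against 125 FPKM (log2 ratio 1.66), CTSS as given above, and GUSB, beta-glucuronidase, at 12.7 against 30.6 FPKM (log2 ratio 1.21). ARSB, arylsulfatase B, was next at 5.01 against 10.5 FPKM (log2 ratio 0.93). The summed level of all matched hydrolases was 984 FPKM in WRRh and 1542 FPKM in WRRl. In the list of lysosomal membrane proteins and pump subunits the members split, with a median of only 0.34. At least 2-fold higher were 7 of 24, against 3.28% of all genes. They include MCOLN2, at 0.790 against 3.30 FPKM (log2 ratio 1.26), which reached the minimum mean only through WRRl. Highest were the pump subunits ATP6V0D2, ATP6V1C2 and TCIRG1 given above, whereas ATP6V1G1, a widely expressed subunit, was equal at 172 against 172 FPKM (log2 ratio 0.01). NPC2, which hands cholesterol out of the lysosome and whose gene model overlaps another, had 57.4 against 122 FPKM (log2 ratio 1.07). LAPTM4A, a widely expressed lysosomal membrane protein, had 194 against 285 FPKM (log2 ratio 0.55). Autophagy, which delivers cargo to lysosomes, had no member at least 2-fold apart among 34 and a median of 0.06. DRAM1, a lysosomal regulator of autophagy, had the largest ratio there at 4.26 against 8.66 FPKM (log2 ratio 0.88), and SQSTM1, the cargo receptor p62, stood at 139.9 against 171 FPKM (log2 ratio 0.29). Macrophage markers were higher beside the hydrolases, the sum of the whole macrophage list being 305 FPKM in WRRh and 695 FPKM in WRRl, and the part of the markers in the lysosomal values was not tested.

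Lymphocyte genes were also higher in WRRl. In the B cell and plasma cell list 8 of 9 members lay above 0, and the median was 0.83. Against 3.28% of all genes, 3 members were at least 2-fold higher. LAC_CHICK, an immunoglobulin lambda chain, had 556 FPKM in WRRh and 1997 FPKM in WRRl (log2 ratio 1.84), and IGJ, the joining chain of secreted IgA and IgM, had 131 FPKM in WRRh and 443 FPKM in WRRl (log2 ratio 1.75). Both gene models overlap others, so the split of reads between them is uncertain. BLNK, an adaptor of the B cell receptor, was higher at much lower levels, 3.02 against 7.73 FPKM (log2 ratio 1.12). The plasma cell enzyme CD38 did not follow, at 11.6 against 9.48 FPKM (log2 ratio -0.27). Among T cell and natural killer genes 15 lay above 0 and 2 below, the lowest at -0.64, and the median was 0.75. Against 3.28% of all genes, 4 of 17 members were at least 2-fold higher. These were ICOS, a costimulatory receptor, at 4.02 against 11.4 FPKM (log2 ratio 1.30), TRBC2, a constant region of the T cell receptor, at 10.6 against 27.6 FPKM (log2 ratio 1.30), PRF1, perforin, at 0.927 against 3.13 FPKM (log2 ratio 1.10), and TRAC, the alpha constant region, at 18.3 against 39.5 FPKM (log2 ratio 1.07). PRF1 was under 1 FPKM in WRRh and reached the minimum mean only through WRRl. CD3D, a chain of the receptor complex, was the most abundant at 37.4 against 67.96 FPKM (log2 ratio 0.84).

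Signalling proteins shared by leukocytes had 22 of 23 members above 0 and a median of 0.83. Against 3.28% of all genes, 7 members were at least 2-fold higher. IL2RG, the common gamma chain of cytokine receptors, had 23.3 FPKM in WRRh and 68.4 FPKM in WRRl (log2 ratio 1.52). CSF3R, the receptor for granulocyte colony-stimulating factor, had 10.4 FPKM in WRRh and 30.5 FPKM in WRRl (log2 ratio 1.47). LYN, a Src family kinase, stood at 10.9 against 27.96 FPKM (log2 ratio 1.28), RASSF2, a Ras effector, at 22.2 against 50.7 FPKM (log2 ratio 1.16), and PTPRC, the pan-leukocyte phosphatase CD45, at 18.1 against 39.8 FPKM (log2 ratio 1.10). The ratios of the whole list ran from -0.15 to 1.52. Antigen presentation had 2 of 7 members at least 2-fold higher, against 3.28% of all genes. They were CTSS and IFI30, a thiol reductase that opens antigens, the latter at 68.02 against 149 FPKM (log2 ratio 1.12). CIITA, which switches on class II genes, had 1.88 against 3.89 FPKM (log2 ratio 0.77), TAP1, a peptide transporter, 8.40 against 14.01 FPKM (log2 ratio 0.68), ERAP1 10.4 against 15.4 FPKM (log2 ratio 0.52) and LGMN, legumain, 66.7 against 95.7 FPKM (log2 ratio 0.51). NLRC5, the class I activator, was the exception at 8.11 against 7.35 FPKM (log2 ratio -0.13).

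All 20 measured interferon response genes lay above 0, with a median of 0.57. Most lay within 2-fold, and 3 were at least 2-fold higher, against 3.28% of all genes. They were ISG12-2 at 27.7 against 70.6 FPKM (log2 ratio 1.32), EPSTI1 at 4.29 against 11.7 FPKM (log2 ratio 1.27) and PARP9 at 3.69 against 8.59 FPKM (log2 ratio 1.03). IRF7, the factor that amplifies the response, came close at 6.13 against 13.01 FPKM (log2 ratio 0.98), and STAT3, the most abundant member, was nearly equal at 56.7 against 61.7 FPKM (log2 ratio 0.12). Chemokines and cytokines were mixed, with a median of 0.40. Against 3.28% of all genes, 4 of 20 members were at least 2-fold higher. Besides SPP1 these were IL22RA2, a soluble receptor of interleukin 22, at 0.698 against 4.33 FPKM (log2 ratio 1.65), IL1R2, a decoy receptor of interleukin 1, at 0.438 against 2.17 FPKM (log2 ratio 1.14), and CCL4 at 5.47 against 12.4 FPKM (log2 ratio 1.05). IL22RA2 and IL1R2 were under 1 FPKM in WRRh and reached the minimum mean only through WRRl. CCLI10, a chemokine named only in the study's tables, was more abundant, at 55.8 FPKM in WRRh and 209.6 FPKM in WRRl (log2 ratio 1.89). In the complement list all 9 members lay above 0 and 1 was at least 2-fold higher, against 3.28% of all genes. The C1q chains that macrophages make stood at 27.9 against 52.5 FPKM (log2 ratio 0.89) for C1QA, 20.1 against 41.1 FPKM (log2 ratio 0.99) for C1QB and 26.1 against 57.1 FPKM (log2 ratio 1.10) for C1QC, and their gene models overlap. CD59, a membrane inhibitor of complement, had 47.2 against 59.2 FPKM (log2 ratio 0.32).

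Genes of cell division were higher in WRRl, most by less than 2-fold. All 36 measured members lay above 0, against 56.6% of all genes, and ran from 0.05 to 1.22 with a median of 0.57. Against 3.28% of all genes, 5 members were at least 2-fold higher. AURKA, the kinase of the spindle poles, had 2.02 against 6.02 FPKM (log2 ratio 1.22). BUB1B, a spindle checkpoint kinase whose gene model overlaps another, had 1.82 against 5.23 FPKM (log2 ratio 1.15), NUSAP1, a spindle protein, 3.70 against 8.999 FPKM (log2 ratio 1.09), and ANLN, anillin of the cleavage furrow, 1.52 against 4.15 FPKM (log2 ratio 1.03). Most genes of this list had means below 10 FPKM, the range where all ratios leaned upwards. PCNA, the sliding clamp of replication, was far more abundant and close to equal at 57.6 against 64.9 FPKM (log2 ratio 0.17). Which cells divided cannot be read from whole muscle.

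Most measured genes of the fast contractile apparatus were nearly equal, but only 7 of 23 listed genes could be measured. The 7 measured genes of the fast sarcomere had a median of -0.06 and 1, against 3.28% of all genes, was at least 2-fold higher. This was MYH1, a fast myosin heavy chain at 430.1 FPKM in WRRh and 897 FPKM in WRRl (log2 ratio 1.06), a member of a cluster of near-identical genes between which reads can be split. The M-band genes MYOM1 and MYOM2 stood at 291 against 302 FPKM (log2 ratio 0.05) and 493 against 518 FPKM (log2 ratio 0.07). TPM2, beta-tropomyosin, had 1306 against 1029.7 FPKM (log2 ratio -0.34), and LMOD3, a nucleator of thin filaments, had the lowest ratio at 153 against 103 FPKM (log2 ratio -0.57).

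Minor isoforms typical of slow, cardiac or embryonic muscle were higher in the light birds. In this list of 5 measured genes 3 were at least 2-fold higher, against 3.28% of all genes. TNNT2, cardiac troponin T, which embryonic and regenerating skeletal muscle also makes, had 2.90 FPKM in WRRh and 24.2 FPKM in WRRl (log2 ratio 2.69). TNNI1, slow skeletal troponin I, had 3.16 FPKM in WRRh and 9.66 FPKM in WRRl (log2 ratio 1.36), and MYBPC3, cardiac myosin-binding protein C, 2.09 FPKM in WRRh and 6.08 FPKM in WRRl (log2 ratio 1.20). MYL2, the slow regulatory light chain, stood at 4.88 against 6.12 FPKM (log2 ratio 0.28). TNNC1, slow and cardiac troponin C, was abundant and equal at 8217 against 8100.2 FPKM (log2 ratio -0.02). At a mean of 13.6 FPKM, TNNT2 remained far below TNNT3, its fast counterpart. With its 5 measured members the list's median (1.20) moved with every setting of the pseudocount and minimum level, between 0.47 and 1.50.

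Among Z-disc and costamere genes 2 of 24 were at least 2-fold higher, against 3.28% of all genes, and the median was -0.02. MYOZ2, calsarcin-1 of slow and cardiac muscle, had 0.674 against 4.33 FPKM (log2 ratio 1.67), and FHL2, a LIM protein of heart, 25.8 against 57.9 FPKM (log2 ratio 1.14). MYOZ2 was under 1 FPKM in WRRh and reached the minimum mean only through WRRl. NRAP, which acts in myofibril assembly, had 99.2 against 147 FPKM (log2 ratio 0.56), whereas MYOZ3, a calsarcin of fast muscle, had 330.2 against 229 FPKM (log2 ratio -0.53). ACTN2, the actin crosslinker of the Z-disc, was equal at 1362 against 1369 FPKM (log2 ratio 0.01), and DES, desmin, nearly so at 906 against 984 FPKM (log2 ratio 0.12). Excitation-contraction coupling had no member at least 2-fold apart and 9 of 12 below 0, with a median of -0.15. CACNG1, a subunit of the muscle calcium channel, had 999 against 858 FPKM (log2 ratio -0.22), and RAPSN, rapsyn of the neuromuscular junction, 50.1 against 38.8 FPKM (log2 ratio -0.36). MUSK, the kinase of the junction, had the largest ratio, at 1.07 against 2.15 FPKM (log2 ratio 0.60). Myogenic regulators had a median of 0.01 and no member at least 2-fold apart. FST, follistatin, which blocks myostatin, had 12.8 against 19.4 FPKM (log2 ratio 0.57), ID2 54.6 against 77.2 FPKM (log2 ratio 0.49) and ID1, an inhibitor of myogenic factors and a target of BMP signalling, 67.99 against 37.1 FPKM (log2 ratio -0.86).

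In fuel metabolism, the switch gene PDK4 stood out against otherwise small differences. PDK4 phosphorylates pyruvate dehydrogenase and so curbs the turning of pyruvate into acetyl-CoA when fatty acids are burnt. It had 18.95 FPKM in WRRh and 87.1 FPKM in WRRl (log2 ratio 2.14). DECR1, a mitochondrial enzyme that handles unsaturated fatty acids, had 21.2 FPKM in WRRh and 48.5 FPKM in WRRl (log2 ratio 1.16). These were the 2 of 13 measured genes of fatty acid oxidation at least 2-fold higher, against 3.28% of all genes. The list median was 0.14. LPIN1, lipin-1, had 12.5 against 17.7 FPKM (log2 ratio 0.47), while HADH, a dehydrogenase of the cycle, had 202 against 157 FPKM (log2 ratio -0.36) and FABP3, the fatty acid carrier of muscle, 315 against 288 FPKM (log2 ratio -0.13). Glycolysis had 6 measured members and none at least 2-fold apart. PGAM1, phosphoglycerate mutase, stood at 6108 against 5564 FPKM (log2 ratio -0.13), LDHB, the heart type of lactate dehydrogenase, at 70.9 against 99.7 FPKM (log2 ratio 0.49), and PFKFB3, a regulator of glycolytic flux, at 98.8 against 76.3 FPKM (log2 ratio -0.37). The sign of the list turned with the minimum level, the median being -0.10 at 1 FPKM and 0.13 at 5 FPKM.

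Glycogen genes had 10 of 14 members below 0, a median of -0.17 and none at least 2-fold apart. PRKAA2, a catalytic subunit of AMP-activated kinase, was lowest at 47.1 against 27.99 FPKM (log2 ratio -0.73). PPP1R3D, a glycogen-targeting subunit of protein phosphatase 1, had 19.5 against 12.2 FPKM (log2 ratio -0.64). PHKG1, the muscle phosphorylase kinase, had 1385 against 1222 FPKM (log2 ratio -0.18).

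Respiratory complex I and the mitochondrial ribosome were slightly lower in WRRl, while complexes II to V and mitochondrial carriers were closer to equal. Of 19 measured complex I subunits 17 lay below 0, from -0.38 to 0.05, with a median of -0.14, against 0.05 over all genes and -0.08 over genes at 50 to 200 FPKM. NDUFB9 had 349.9 against 269 FPKM (log2 ratio -0.38), NDUFA8 125 against 102 FPKM (log2 ratio -0.29) and NDUFS5 109.5 against 91.2 FPKM (log2 ratio -0.26). NDUFA4 and NDUFB10 were the most abundant, at 639.8 against 662 FPKM (log2 ratio 0.05) and 395 against 350.4 FPKM (log2 ratio -0.17). Complexes II to V were closer to equal, with a median of -0.04 over 18 genes. Among them SCO1, which carries copper to cytochrome oxidase, had 59.1 against 35.04 FPKM (log2 ratio -0.74), COX17, another copper carrier, 709 against 538 FPKM (log2 ratio -0.40), and COX7A2, an oxidase subunit, 65.9 against 91.5 FPKM (log2 ratio 0.47). The mitochondrial ribosome had 31 of 40 members below 0 and a median of -0.13, with MRPS31 lowest at 165 against 95.3 FPKM (log2 ratio -0.78). Mitochondrial carriers and import factors had a median of -0.07 over 20 genes, and MFN2, mitofusin 2, had 101 against 69.5 FPKM (log2 ratio -0.53). The protein genes on the mitochondrial genome, looked up after the lists, were near equal too, as in cytochrome b at 2651 against 2522 FPKM (log2 ratio -0.07). No member of these 4 lists was at least 2-fold apart.

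The amino acid lists held isolated differences rather than a shared one. ASS1, argininosuccinate synthase of arginine synthesis, had 20.5 FPKM in WRRh and 59.2 FPKM in WRRl (log2 ratio 1.48), and ASNS, asparagine synthetase, 5.92 FPKM in WRRh and 16.96 FPKM in WRRl (log2 ratio 1.38). Both are known targets of ATF4, the factor of the amino acid response. They were the 2 of 13 members at least 2-fold higher, against 3.28% of all genes, yet the list median was -0.07. CHAC1, a glutathione-degrading enzyme and ATF4 target, went the other way at 74.4 against 42.3 FPKM (log2 ratio -0.80), and PSPH, of serine synthesis, at 120.3 against 78.5 FPKM (log2 ratio -0.61). EIF4EBP1, a brake on translation and the most abundant member, was equal at 712 against 668 FPKM (log2 ratio -0.09). Amino acid breakdown had a median of -0.10 and none of 16 members at least 2-fold apart, with SAT1, of polyamine turnover, at 113 against 198 FPKM (log2 ratio 0.80) and PCCB, of propionate breakdown, at 49.3 against 32.5 FPKM (log2 ratio -0.59). Nutrient transporters had none of 17 at least 2-fold apart, the largest being SLC43A2, an amino acid carrier, at 19.2 against 35.8 FPKM (log2 ratio 0.87).

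The measured ribosomal protein genes were slightly higher in WRRl, and translation factors were close to equal. Only 15 of 80 listed ribosomal protein genes were measured. All 15 lay above 0, none by more than 0.31, and the median was 0.13, against 0.05 over all genes. RPL29, the most abundant, had 2888 against 3033 FPKM (log2 ratio 0.07). Translation factors had a median of -0.06 over 26 genes, from -0.39 to 0.32. In insulin, IGF and mTOR signalling 2 of 31 members were at least 2-fold higher, against 3.28% of all genes, and the median was -0.07. FOXO3, the forkhead factor that insulin signalling keeps out of the nucleus, had 14.1 FPKM in WRRh and 30.8 FPKM in WRRl (log2 ratio 1.07). IRS2, an adaptor of the insulin receptor and itself a FOXO target in mammals, had 2.50 FPKM in WRRh and 6.19 FPKM in WRRl (log2 ratio 1.04). IGF1 was weakly expressed at 1.02 against 1.90 FPKM (log2 ratio 0.52), and PIK3R1, a regulatory subunit of PI3 kinase, had 7.32 against 5.31 FPKM (log2 ratio -0.40).

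The ubiquitin ligases and FOXO targets of muscle atrophy were close to equal. None of 24 measured members was at least 2-fold apart, and the median was -0.01. TRIM63 (MuRF1), a ligase that marks sarcomere proteins, was equal at 374 against 373 FPKM (log2 ratio 0.00). PIK3IP1, an inhibitor of PI3 kinase, was the highest at 74.2 against 102 FPKM (log2 ratio 0.46). KLHL38 stood at 4.82 against 2.99 FPKM (log2 ratio -0.55), KLF15, a glucocorticoid-induced factor, at 28.4 against 20.2 FPKM (log2 ratio -0.47), and FBXO31 at 39.04 against 28.4 FPKM (log2 ratio -0.44). Proteasome genes had a median of -0.08 and none of 18 at least 2-fold apart, with the ubiquitin gene UBB lowest at 1283 against 1002 FPKM (log2 ratio -0.36). Of 53 listed chaperones only 11 were measured, and 9 of these were lower, with a median of -0.27. CRYAB, the small heat shock protein of muscle, had 189 against 127 FPKM (log2 ratio -0.57), AHSA1, an activator of HSP90, 101 against 76.4 FPKM (log2 ratio -0.39), and UNC45B, the myosin chaperone, 84.4 against 66.7 FPKM (log2 ratio -0.33). Genes of the endoplasmic reticulum, by contrast, lay above 0 in 17 of 22 members (median 0.12), none at least 2-fold apart.

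Connective tissue genes differed by kind. Collagens and their assembly enzymes had none of 19 members at least 2-fold apart and a median of 0.17. COL1A1, the main chain of collagen I, had 1003 against 1270.2 FPKM (log2 ratio 0.34), SPARC 780.1 against 791 FPKM (log2 ratio 0.02) and COL14A1 6.13 against 12.4 FPKM (log2 ratio 0.91). Basement membrane genes were equal, with a median of 0.08 and ratios between -0.31 and 0.30. Matrix glycoproteins and surface markers of fibroblasts had 6 of 32 members at least 2-fold higher, against 3.28% of all genes. In the same list 1 was lower, and the median was 0.31. NELL2, a secreted protein with thrombospondin modules, had 3.14 FPKM in WRRh and 13.5 FPKM in WRRl (log2 ratio 1.80). CTHRC1, made by activated fibroblasts, had 1.65 FPKM in WRRh and 6.81 FPKM in WRRl (log2 ratio 1.56), and DPP4, a surface peptidase of fibroblast progenitors, 2.58 FPKM in WRRh and 8.11 FPKM in WRRl (log2 ratio 1.35). MGP, matrix Gla protein, was abundant at 542 against 811 FPKM (log2 ratio 0.58). Of 21 matrix proteases and inhibitors 3 were at least 2-fold higher, against 3.28% of all genes. They were CSTA, MMP9 and ADAM12, a protease of regenerating muscle, the last at 1.33 against 4.61 FPKM (log2 ratio 1.27). MMP7, matrilysin, belongs to no list as matched, and had 42.9 FPKM in WRRh and 145 FPKM in WRRl (log2 ratio 1.74).

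Of the tendon and cartilage genes TNMD, FMOD and OTOR were lower in WRRl, while COMP, the most abundant, was higher. In the tendon and cartilage list 3 of 8 measured genes were at least 2-fold lower, against 0.748% of all genes, and the median was -0.23. TNMD, tenomodulin, had 8.35 FPKM in WRRh and 3.47 FPKM in WRRl (log2 ratio -1.07). FMOD, fibromodulin, a proteoglycan that shapes collagen fibrils, had 15.2 FPKM in WRRh and 5.70 FPKM in WRRl (log2 ratio -1.28). OTOR, a secreted protein known from cochlea and cartilage, had 12.6 FPKM in WRRh and 4.61 FPKM in WRRl (log2 ratio -1.28). COMP, cartilage oligomeric matrix protein, lay within 2-fold at 131 against 202 FPKM (log2 ratio 0.62), and so did CHAD, CILP, EGR1 and THBS4 at 0.03, -0.08, -0.16 and -0.30. The cartilage genes COL2A1 and ACAN are listed at 0 in both libraries.

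Smooth muscle was the list with the lowest median, -0.37, and 11 of its 12 measured genes lay below 0. MYH11, smooth muscle myosin, had 32.97 FPKM in WRRh and 13.8 FPKM in WRRl (log2 ratio -1.20), with a gene model that overlaps another. TAGLN, transgelin, an actin-binding protein of smooth muscle, had 77.5 FPKM in WRRh and 33.8 FPKM in WRRl (log2 ratio -1.17). MYLK, the kinase of myosin light chain, stood at 10.996 against 6.11 FPKM (log2 ratio -0.75), and MYOCD, the factor that drives the smooth muscle program, at 14.6 against 9.04 FPKM (log2 ratio -0.64). RGS5, a marker of pericytes, was abundant and lower by less, at 242 against 173 FPKM (log2 ratio -0.49). The single member above 0 was DES, which striated muscle makes in large amounts. Endothelial genes were slightly lower in 17 of 22 members (median -0.16), with 1, against 3.28% of all genes, at least 2-fold higher. That gene was CLDN5, a tight junction protein at 29.7 against 64.2 FPKM (log2 ratio 1.09), whose gene model overlaps another. MMRN2, a matrix protein of vessels, had 29.1 against 20.96 FPKM (log2 ratio -0.45), and SOX18 18.4 against 13.2 FPKM (log2 ratio -0.45). Among nerve and Schwann cell genes S100B, a calcium-binding protein of glia, was at least 2-fold lower at 7.80 against 3.08 FPKM (log2 ratio -1.11), and MBP, myelin basic protein, had 25.8 against 17.1 FPKM (log2 ratio -0.57).

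Among immediate early genes and YAP targets KLF2 and KLF4 were just past 2-fold lower in WRRl. Of 20 measured members these 2 were at least 2-fold lower, against 0.748% of all genes, and 14 below 0, with a median of -0.11. KLF2 and KLF4, factors that shear stress induces in endothelium, had 14.97 FPKM in WRRh and 6.57 FPKM in WRRl (log2 ratio -1.08) and 70.9 FPKM in WRRh and 34.7 FPKM in WRRl (log2 ratio -1.01), respectively. CTGF and CYR61, matricellular targets of YAP, had 95.4 against 53.5 FPKM (log2 ratio -0.82) and 89.6 against 55.7 FPKM (log2 ratio -0.68). ANKRD1, a YAP target and stretch-responsive gene of muscle, did not share the direction, at 411 against 496 FPKM (log2 ratio 0.27), nor did BTG1, an antiproliferative factor, at 110.1 against 164 FPKM (log2 ratio 0.57).

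**Figure D4:**
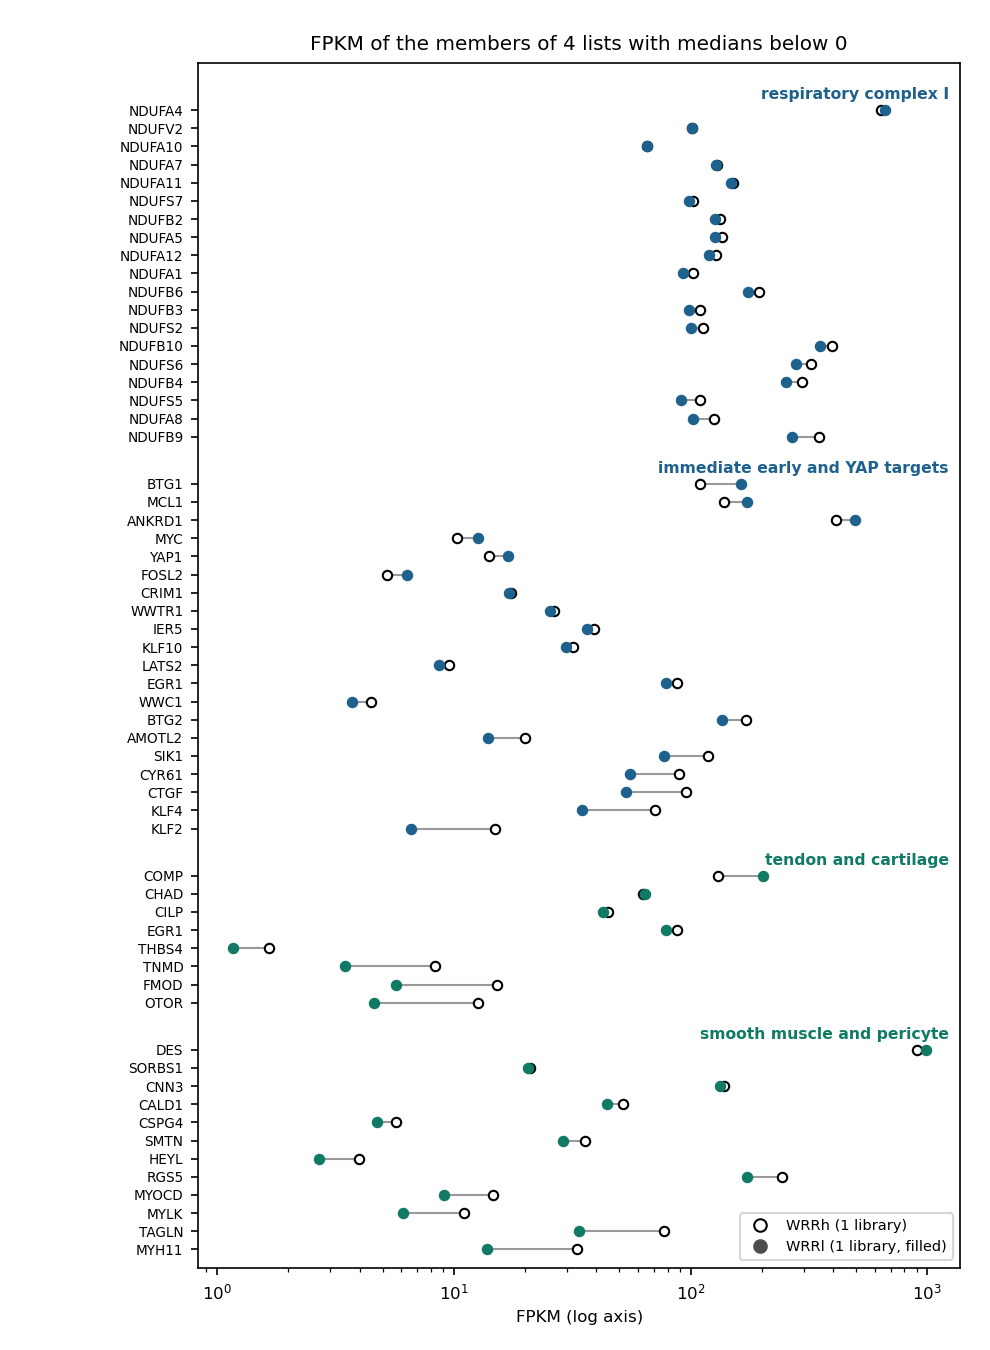
Open circles give WRRh and filled circles WRRl on a log axis of FPKM for all measured members of 4 lists with medians below 0, 1 library each. Complex I genes differ little and mostly in the same direction, whereas KLF2, KLF4, TNMD, FMOD, OTOR, TAGLN and MYH11 lie at least 2-fold lower in WRRl.

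Redox genes held 3 of 28 members at least 2-fold higher, against 3.28% of all genes, and a median of 0.15. GSTA1, a glutathione transferase, had 20.3 FPKM in WRRh and 58.02 FPKM in WRRl (log2 ratio 1.47). TKT, transketolase of the pentose phosphate pathway, had 11.6 FPKM in WRRh and 27.2 FPKM in WRRl (log2 ratio 1.17), and GLRX, glutaredoxin, 114 FPKM in WRRh and 236 FPKM in WRRl (log2 ratio 1.05). SEPP1, the selenium carrier selenoprotein P, had 89.8 against 159 FPKM (log2 ratio 0.82), and OSGIN1, an oxidative stress gene, 75.3 against 51.5 FPKM (log2 ratio -0.54). In lipid storage the members parted, 8 above 0 and 8 below, with a median of 0.02. CETP, the plasma cholesteryl ester transfer protein, was 1 of the largest differences downwards, at 95.8 FPKM in WRRh and 24.5 FPKM in WRRl (log2 ratio -1.93). APOA1, the main protein of high-density lipoprotein, which muscle of birds also makes, had 1645 FPKM in WRRh and 3375 FPKM in WRRl (log2 ratio 1.04), with an overlapping gene model. The adipocyte genes ADIPOQ and PLIN1 stood at 70.3 against 60.9 FPKM (log2 ratio -0.20) and 14.5 against 10.7 FPKM (log2 ratio -0.41), and G0S2, an inhibitor of lipolysis, at 138 against 86.1 FPKM (log2 ratio -0.68). Other members went the other way, RBP7 at 23.6 against 44.4 FPKM (log2 ratio 0.88) and AGPAT2 at 3.89 against 7.78 FPKM (log2 ratio 0.84). FABP4 is no member as matched, and the gene ID set beside it above had a log2 ratio of 1.51. TTR, transthyretin, a carrier of thyroid hormone, had 16.9 FPKM in WRRh and 139 FPKM in WRRl (log2 ratio 2.96). Clock and hormone genes had none of 17 members at least 2-fold apart and a median of 0.00.

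Further genes at the extremes of the ratio belonged to no list. AVD, avidin, which chicken tissues make in inflammation, had 77.8 FPKM in WRRh and 611 FPKM in WRRl (log2 ratio 2.96), with an overlapping gene model. EX-FABP, a lipocalin of acute phase responses, had 6.84 FPKM in WRRh and 39.3 FPKM in WRRl (log2 ratio 2.36), and the antimicrobial peptide AMP1_CHICK 2.32 FPKM in WRRh and 12.95 FPKM in WRRl (log2 ratio 2.07). LGALS3, galectin-3 of macrophages, with an overlapping gene model, stood at 26.9 against 102 FPKM (log2 ratio 1.89), and LOC420301, annotated in the study's tables as a lymphocyte antigen 6 gene, at 66.8 against 267 FPKM (log2 ratio 1.98). SERPINI1, neuroserpin, had 11.1 against 46.7 FPKM (log2 ratio 1.98), and MDK, the growth factor midkine, 9.08 against 30.02 FPKM (log2 ratio 1.62). The calcium buffers called parvalbumins went in opposite directions. The thymic form PRVT_CHICK had 0.934 FPKM in WRRh and 9.998 FPKM in WRRl (log2 ratio 2.51) and the muscle form PRVM_CHICK 15.3 FPKM in WRRh and 3.87 FPKM in WRRl (log2 ratio -1.74). PRVT_CHICK was under 1 FPKM in WRRh and reached the minimum mean only through WRRl, and it is listed at 0 in XHh and XHl. Lower in WRRl were ITGBL1, an integrin-like secreted protein, at 7.70 against 2.42 FPKM (log2 ratio -1.35), NOTUM, an extracellular inhibitor of Wnt, at 9.62 against 3.61 FPKM (log2 ratio -1.20), C15orf59 at 12.5 against 4.64 FPKM (log2 ratio -1.25) and a U6 small nuclear RNA, 1 of several near-identical copies, at 591 against 158 FPKM (log2 ratio -1.90). SRRD had 404 FPKM in WRRh and 17.5 FPKM in WRRl (log2 ratio -4.45), but its gene model overlaps another.

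Some genes could not be given a ratio, because 506 gene IDs are listed at 0 in WRRh alone and 551 in WRRl alone. In 37 and 40 of these the other library had at least 10 FPKM. EIF3J, a translation initiation factor, is listed at 0 in WRRh and at 149 FPKM in WRRl, and GSPT1, a translation termination factor, at 0 and 52.1 FPKM. HEATR3 is listed at 22.7 FPKM in WRRh and at 0 in WRRl. The gene models of EIF3J and HEATR3 overlap others, and their values are uncertain. Since GSPT1 and HEATR3 had 55.9 and 18.7 FPKM in XHh, and such genes serve every cell, a 0 was not read as absence.

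Side by side with the Xinghua pair, which shares no library with this one, fewer Xinghua genes were apart. Of 10019 genes compared between XHl and XHh, 78 (0.779%) were at least 2-fold higher and 54 (0.539%) at least 2-fold lower in XHl, with a median of 0.05. The Xinghua libraries differed in depth too. In 80 of 217 genes under 0.1 FPKM the ratio of XHl to XHh was within 2% of 0.57, so XHl was the deeper library. The part of depth in these counts was not tested. The difference between the breeds rests on 1 library per condition and was not tested. Macrophage markers had a median of 0.99 in White Rock and 0.34 in Xinghua, where 11 of 11 measured members lay above 0. The phagocyte list had 1.20 over 16 genes and 0.06 over 11, and the osteoclast list 1.47 over 13 and 0.18 over 8. The lysosomal hydrolases had 0.56 over 29 genes and 0.09 over 30. The members behind the medians thus differ, and some that were high in White Rock, such as SPP1 and CYBB, fell below the minimum level in Xinghua. Others were weak there, such as MARCO at 4.21 FPKM in XHh and 4.45 FPKM in XHl, where the added 1 FPKM shrinks ratios. SPP1 was barely present in Xinghua, with 0.546 FPKM in XHh and 0.619 FPKM in XHl. Cell cycle genes had medians of 0.57 and 0.23, and 27 of 33 Xinghua members lay above 0. LAC_CHICK and IGJ were at least 2-fold higher in the light birds of both breeds, with 26.3 FPKM in XHh and 84.8 FPKM in XHl for LAC_CHICK and 7.61 FPKM in XHh and 24.4 FPKM in XHl for IGJ. PDK4 was far more abundant in Xinghua, with 265 FPKM in XHh and 514 FPKM in XHl (log2 ratio 0.95). Complex I had medians of -0.14 and 0.07, and the smooth muscle list -0.37 and -0.20. The tendon list had a median of -0.23 in White Rock and 0.55 in Xinghua. FOXO3 had 92.7 FPKM in XHh and 90.9 FPKM in XHl (log2 ratio -0.03), and TNNT2 2.51 FPKM in XHh and 2.78 FPKM in XHl (log2 ratio 0.10). TTR is listed at 0 in XHh and at 255 FPKM in XHl, and EX-FABP at 6.17 FPKM in XHh and at 0 in XHl. Over all genes compared in both pairs, 17 were at least 2-fold higher and 3 at least 2-fold lower in the light birds of both breeds. Within each pair 3.28% were higher and 0.748% lower in WRRl, and 0.779% higher and 0.539% lower in XHl. The number compared in both pairs is not given here, so these counts have no share beside them.

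**Figure D5:**
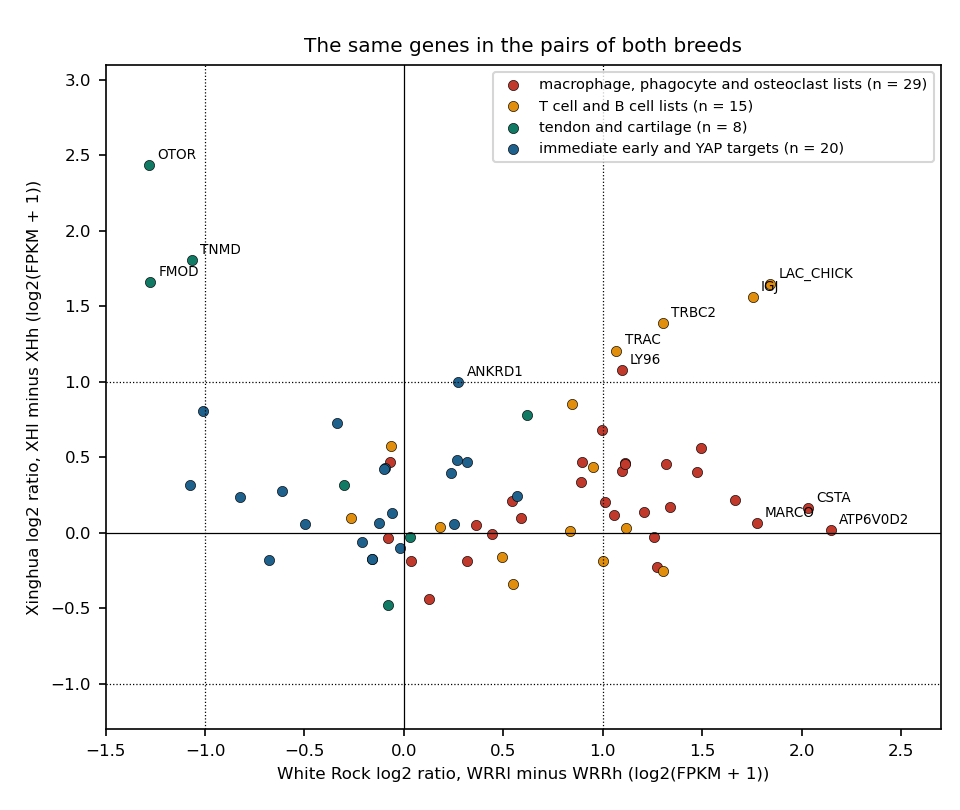
Each point is 1 gene of the named lists that was compared in both pairs, with the White Rock log2 ratio on the horizontal axis and the Xinghua log2 ratio on the vertical axis, and dotted lines mark 2-fold. Macrophage, phagocyte and osteoclast genes spread along the White Rock axis, T cell and B cell genes such as LAC_CHICK (1.84 and 1.65) also reach high Xinghua values, and OTOR, FMOD and TNMD lie at the upper left.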

How the data were processed

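RNA of 3 hens per group was pooled into 1 library. Per the labels and the study's methods, the authors removed low quality reads, aligned the rest with TopHat (galGal4 per the submitters' notes, version not given in the sources used here) and derived FPKM per gene, the unit of the deposited values. The 4 deposited tables each hold 1 pair of libraries, and their fold change, p-value and q-value columns, the authors' own comparisons in the column layout of Cuffdiff, were not used.

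Members and lists were chosen with earlier results of these data known. Of 2287 list symbols 1108 matched 1 gene ID by symbol, and 957 of these genes were compared. A further 30 IDs took names from the study's tables. Genes named are the 8 with the largest ratio per direction (mean at least 5 FPKM, a symbol, no overlapping gene model), per list the 4 with the largest ratio and the 2 most abundant, all members of lists of up to 8, and those the study names for this contrast. ADIPOQ, ATP6V1G1, BTG1, CD38, DCSTAMP, IRAK4, MYD88, MYH9, NCF1, NCF4, NFATC1, NPC2, OSGIN1, PIK3R1, PLIN1, STAB1, TLR5, TNFRSF11A and the genes opposite in both breeds were added after their values were seen. Overlap of gene models ignored strand; besides those marked in the text, CCL4, CHAD, DES, ID1, MFN2, MYLK, MYOM1, NRAP, PCCB, PSPH, RSPO3, UBB, SCARNA6 and ENSGALG00000021150 overlap another model and are uncertain. For 15 genes listed at 0 here, another table gives WRRl above 0. The 8 alternatives changed 1 choice each. The planned search of promoter motifs was not run. Values of 3 list members are not reported here. Code was tested on simulated data. Python 3.11.15, pandas 2.3.3, numpy 2.4.6 and matplotlib 3.10.9 were used.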

Additional observations from a re-analysis of the deposited data

Results flagged for a closer look

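Both breeds showed a 2-fold or larger gap in opposite directions in 12 genes, 6 each way. Over all genes of each pair, 3.28% were higher and 0.748% lower in WRRl, and 0.779% higher and 0.539% lower in XHl. The number of genes compared in both pairs is not given here, so the 12 genes have no share beside them. Values are log2 ratios of light to heavy birds, White Rock first, and with 1 library per condition the difference was not tested. Higher in the heavy White Rock birds and in the light Xinghua birds were 3 genes of the tendon and cartilage list. OTOR had -1.28 in White Rock and 2.43 in Xinghua, where it stood at 2.75 FPKM in XHh and 19.3 FPKM in XHl. FMOD had -1.28 and 1.66 (3.25 FPKM in XHh and 12.4 FPKM in XHl), and TNMD -1.07 and 1.81 (1.34 FPKM in XHh and 7.18 FPKM in XHl). PRVM_CHICK, muscle parvalbumin, had -1.74 and 1.90. SRRD (-4.45 and 2.15) and the unnamed ENSGALG00000021339 (-1.05 and 1.31) have gene models that overlap others. Higher in the light White Rock and the heavy Xinghua birds was GLRX, glutaredoxin, at 1.05 and -2.14, with 130.4 FPKM in XHh and 28.8 FPKM in XHl. The small RNA SCARNA6 had 1.23 and -1.76. The other 4 have no symbol: ENSGALG00000021150 had 1.05 and -1.06, ENSGALG00000020044 1.27 and -2.02, ENSGALG00000016194 1.53 and -2.07, and ENSGALG00000019175 1.65 and -1.23.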

How the results depend on the processing

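How many genes passed 2-fold depended on the pseudocount. With 0.1 in place of 1 FPKM they were 623 higher and 133 lower (756 in all), with 5 FPKM 109 and 22 (131), and with a minimum mean of 5 FPKM 235 and 46 (281), against 351 and 80 (431). Without a minimum, under both scalings, with values taken from the other table and without overlapping gene models the counts stayed within 1.5 times of these. Quantile normalization still narrowed the surplus of higher genes, to 262 higher and 102 lower. The FPKM of all genes summed to 595044 in WRRh and 637654 in WRRl.

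No called ratio changed sign, but for single genes this was largely fixed in advance. For a gene at least 2-fold apart, only quantile normalization could have turned the sign. Of 424 list medians recomputed, 15 moved by more than 0.21 on the log2 scale, a tolerance taken from the spread of all ratios, and so did 132 of 2506 ratios of named genes. The slow, cardiac and embryonic sarcomere list had 1.50 with pseudocount 0.1, 0.64 with pseudocount 5, 0.82 with a minimum mean of 5 FPKM and 0.47 without a minimum. With pseudocount 5 the phagocyte list had 0.77, T cell genes 0.36, B cell genes 0.56, leukocyte signalling 0.50, the osteoclast list 0.78 and cell cycle genes 0.29. With pseudocount 0.1 B cell genes had 1.05 and the osteoclast list 1.69. With a minimum mean of 5 FPKM T cell genes had 1.01, glycolysis 0.13 and nutrient transporters 0.037. The medians of 6 lists near 0 did change sign in some setting, namely myogenic regulators, glycolysis, lipid storage, atrophy ligases, nerve, and TGF-beta, BMP, Wnt and Notch.

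No paired analysis was possible because each side has 1 library, and for the same reason no replicate was left out. The FPKM tables hold no counts, so the precision of single genes is unknown.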

Other observations

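Cell adhesion and growth factor signalling, not described above, were near equal. Among 20 adhesion and cytoskeleton linkers the median was 0.09, and SRC, the founding member of the Src kinases, was at least 2-fold higher at 3.66 FPKM in WRRh and 8.81 FPKM in WRRl (log2 ratio 1.07). ANXA2, an annexin that binds membranes, had 164 against 250.2 FPKM (log2 ratio 0.60), MYH9, non-muscle myosin, 79.5 against 95.3 FPKM (log2 ratio 0.26), and BCAR1, a scaffold of focal adhesions whose gene model overlaps another, 10.1 against 4.78 FPKM (log2 ratio -0.95). In TGF-beta, BMP, Wnt and Notch signalling none of 32 members was at least 2-fold apart, and the median was -0.04. RSPO3, an enhancer of Wnt signalling, had 1.27 against 3.11 FPKM (log2 ratio 0.86), and GREM1, a BMP antagonist, 4.72 against 2.55 FPKM (log2 ratio -0.69). Sterol synthesis had a median of 0.07 over 11 genes and none at least 2-fold apart. Genes of red cells and thrombocytes had a median of -0.07 over 6 genes, with HBAD, an alpha-type globin, at 129.8 against 83.6 FPKM (log2 ratio -0.63). Machinery common to all cells had a median of 0.11 over 46 genes, of which GUSB, also a lysosomal hydrolase, was at least 2-fold apart.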
